A study of Mus musculus with 3 samples.

Results

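The genes described here encode the contractile apparatus and cytoskeleton of smooth muscle, together with the transcription factors that switch them on. They are the 37 rows of the deposited expression table whose gene name is on a list of such genes, out of 33762 rows in all. Every name on the list matched 1 row, and all 37 had at least 20 counts in at least 1 library, as did 18005 features of the table. The libraries were made from polyadenylated RNA of the caecum, the colon and the presumptive ileum of wild-type mouse embryos of strain Bl6/C57 at E13.5. Each segment gave 1 sample, and the ileum was the most distal of the equal portions into which the small intestine was cut. The labels do not say how many embryos a sample held. Hoxa13 and Hoxd13, genes of the hindgut, had 81 and 13 counts in the caecum, 2310 and 2355 in the colon, and 0 and 1 in the ileum. Fgf10, a growth factor of caecal mesenchyme, had 2162, 3663 and 124. Its counts were highest in the colon, so it does not set the caecum library apart from the colon library. Whole segments were used, so each library mixes muscle with epithelium, mesenchyme, nerve, vessel and blood. A lower level of muscle RNA can come from fewer muscle cells or from less RNA per cell, and bulk RNA cannot tell these apart.

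Smooth muscle of the gut wall arises from mesenchyme around the epithelial tube, first as the circular layer and later as the longitudinal layer. Its cells contract when calcium and calmodulin activate myosin light chain kinase, which phosphorylates the regulatory light chain of smooth muscle myosin and lets it pull on actin filaments. The genes of this machinery share a control route, in which serum response factor binds CArG boxes in their promoters and the coactivators myocardin and the myocardin-related factors turn the bound factor into an activator. Many of the proteins have close relatives in non-muscle cells, so their RNA alone does not mark muscle.

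The contractile genes were most abundant in the ileum library and least abundant, for most, in the caecum library. Actg2 and Acta2 encode smooth muscle actins. They had 140 and 167 RPKM in the caecum, 198 and 252 in the colon, and 432 and 379 in the ileum (RPKM are the authors' read counts scaled by gene length and library depth). Of the 37 genes, 28 were highest in the ileum and 22 were lowest in the caecum, each with 95% counting intervals that excluded 1 against both other segments. The same criteria were met by 15.8% and 14.7% of the 18005 features with at least 20 counts in a library. A fold here is the ratio of counts after TMM scaling of the libraries, and its interval is an exact binomial interval that covers counting error only. Intervals narrow as counts rise, so abundant genes meet the criteria at small differences, and the shares over all features include genes of far lower counts. Flna was called highest in the ileum with a colon level of 0.973 of the ileum level. With 1 sample per segment no difference has a replicate check, and no p-value can be given.

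**Figure D1:**
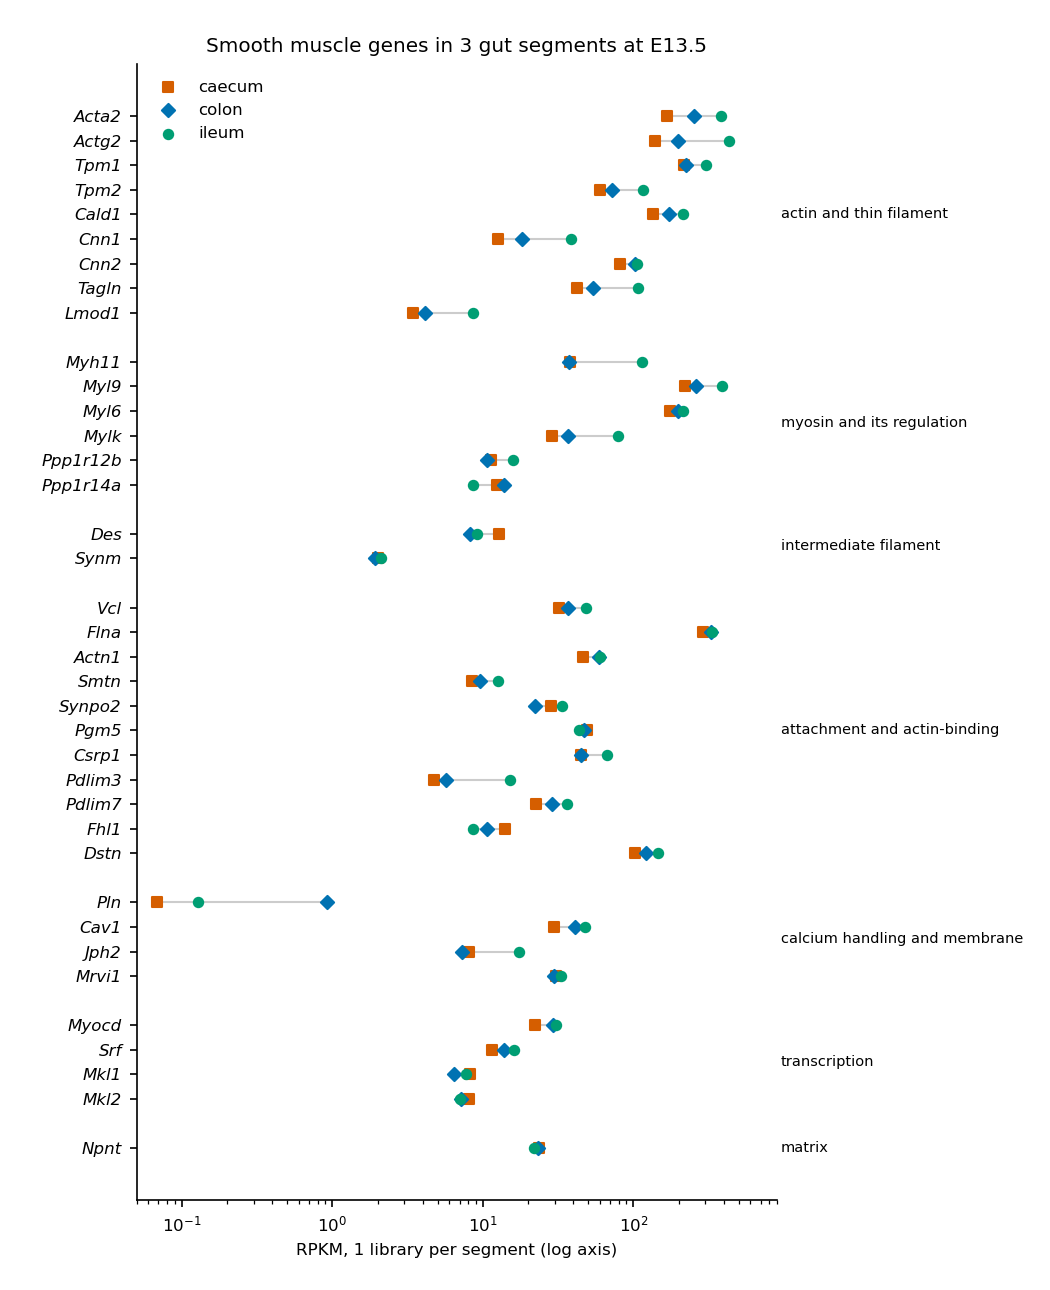
Level of each of the 37 genes in each library, in RPKM on a log axis, with genes grouped by role and 1 point per segment (squares caecum, diamonds colon, circles ileum). The ileum point lies to the right for most actin, myosin and attachment genes, while Des, Fhl1, Pgm5, Mkl1, Mkl2 and Npnt have their highest RPKM in the caecum and Pln and Ppp1r14a in the colon.

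The libraries held 64445898 counts for the caecum, 50778939 for the colon and 50085603 for the ileum. The 37 genes together took 0.939% of counts in the caecum, 1.07% in the colon and 1.41% in the ileum. Their summed RPKM was 2147 in the caecum, 2541 in the colon and 3522 in the ileum. These sums rest largely on the abundant genes, such as Actg2 and Acta2. The TMM factors lay between 0.992 and 1.01, so scaling altered little. The median log2 fold over all features compared was 0.01 for caecum over ileum, 0.01 for caecum over colon and 0.00 for colon over ileum.

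Short stretches upstream of 12 of the genes are shown because they hold letters that match the CArG box, the motif of serum response factor, in full or with 1 core base changed. They are all the genes with such a match among those whose promoter window was at hand. Sequences are from RefSeq on GRCm38.p6, 5' to 3' on the strand of the gene, and capitals mark a CArG box or a CArG box with 1 G or C in its A/T core. The gene table itself uses mm9, so the positions of these stretches and of the genes must not be set against each other.
Acta2 (chr19:34255378-34255477, strand -): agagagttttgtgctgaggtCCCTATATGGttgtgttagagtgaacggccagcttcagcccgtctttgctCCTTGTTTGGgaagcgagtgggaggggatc
Myl9 (chr2:156775283-156775394, strand +): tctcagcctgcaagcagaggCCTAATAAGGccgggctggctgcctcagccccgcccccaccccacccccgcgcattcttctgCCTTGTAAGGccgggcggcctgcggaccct
Cnn2 (chr10:79988524-79988573, strand +): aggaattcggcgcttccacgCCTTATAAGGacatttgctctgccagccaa
Myl6 (chr10:128493030-128493079, strand -): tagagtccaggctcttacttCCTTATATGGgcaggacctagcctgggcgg
Vcl (chr14:20929151-20929200, strand +): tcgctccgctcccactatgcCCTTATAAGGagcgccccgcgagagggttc
Srf (chr17:46556195-46556264, strand -): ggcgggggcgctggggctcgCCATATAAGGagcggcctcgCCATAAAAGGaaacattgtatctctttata
Pdlim3 (chr8:45885367-45885416, strand +): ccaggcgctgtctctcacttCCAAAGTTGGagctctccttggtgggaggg
Jph2 (chr2:163398037-163398086, strand -): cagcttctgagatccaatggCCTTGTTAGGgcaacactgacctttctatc
Fhl1 (chrX:56779561-56779610, strand +): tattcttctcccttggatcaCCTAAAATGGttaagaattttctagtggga
Synm (chr7:67759952-67759992, strand -): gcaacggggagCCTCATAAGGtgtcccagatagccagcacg
Dstn (chr2:143915205-143915254, strand +): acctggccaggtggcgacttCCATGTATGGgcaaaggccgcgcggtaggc
Mkl1 (chr15:81190831-81190880, strand -): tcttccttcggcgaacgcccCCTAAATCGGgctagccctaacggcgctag
Acta2 carries a pair of boxes that each depart from the consensus at 1 core base, CCCTATATGG and CCTTGTTTGG, whose first bases lie 84 and 34 bases before the annotated start. Myl9 has CCTAATAAGG at 161 bases and CCTTGTAAGG at 99 bases before its start. Srf, the gene of the factor itself, holds CCATATAAGG at 82 and CCATAAAAGG at 62 bases, while Cnn2 and Vcl have the same box, CCTTATAAGG, at 56 and 227 bases before their starts.

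Promoter windows of 250 bases were at hand for 33 of the 37 genes, in 45 windows, and not for Actg2, Tagln, Myh11 and Myocd. A CArG box, which reads the same on both strands as a class, stood in 6 of the 45 windows (13.3%) and in 1.47% of the 32851 windows of all genes. The boxes lie in Cnn2, Myl9, Myl6, Vcl, Fhl1 and Srf. A box with 1 G or C in its core stood in 8 of the 45 windows (17.8%), counting a pair of overlapping windows of Jph2, and in 7.24% of all windows. These are Acta2, Myl9, Synm, Pdlim3, Dstn, Jph2 and Mkl1. Of the 6 genes with a window that were at least 2-fold apart between caecum and ileum, Acta2, Pdlim3 and Jph2 held such a box. Cnn1, Lmod1 and Mylk held neither kind in these 250 bases, and none of the 6 held a consensus CArG box. Myl9, Synm, Dstn and Mkl1, which also held a box with 1 G or C in its core, were less than 2-fold apart. Caecum over ileum, the genes with a consensus box ran from 0.563 (Myl9) to 1.63 (Fhl1). A match of letters describes the window and does not show a site.

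The actin filament and its partners made up the group with the most uniform pattern. All 9 of its genes were highest in the ileum and lowest in the caecum. Actg2 (ENSMUSG00000059430, mm9 chromosome 6, 83462899 to 83486259) had 14077 counts in the caecum, 15682 in the colon and 33812 in the ileum. The caecum stood at 0.321 of the ileum level (0.315 to 0.328) and at 0.713 of the colon level (0.697 to 0.729), and the colon at 0.450 of the ileum level (0.442 to 0.459). Acta2 (ENSMUSG00000035783, chromosome 19, 34315580 to 34329826) differed less between colon and ileum, with 19222 counts in the caecum, 22801 in the colon and 33835 in the ileum. Its caecum level was 0.438 of the ileum level (0.431 to 0.446) and its colon level 0.655 of it (0.644 to 0.666). The RPKM of Actg2 divided by that of Acta2 was 0.835 in the caecum, 0.784 in the colon and 1.14 in the ileum. Actg2 thus exceeded Acta2 in the ileum library only.

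Cnn1, the calponin of differentiated smooth muscle, and Tagln, the actin-bundling transgelin, were lower in both caudal segments. Cnn1 (chromosome 9, 21903725 to 21914074) had 1937 counts in the caecum, 2182 in the colon and 4560 in the ileum, which put the caecum at 0.328 (0.311 to 0.346) and the colon at 0.465 (0.441 to 0.489) of the ileum level. Tagln (chromosome 9, 45737711 to 45744141) had 4311, 4353 and 8513 counts in the caecum, colon and ileum, at 0.391 (0.377 to 0.405) and 0.497 (0.479 to 0.515) of the ileum level. Tagln overlaps Pcsk7 on the other strand, which had 1382, 969 and 1001 counts in the caecum, colon and ileum, and whether the counting used strand is not given. Lmod1, a leiomodin that nucleates actin filaments, had 3.46 RPKM in the caecum, 4.16 in the colon and 8.65 in the ileum, the lowest level of the group. For Lmod1 the caecum level was 0.397 (0.365 to 0.431) and its colon level 0.473 (0.435 to 0.515) of the ileum level.

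The remaining thin filament genes, most of which non-muscle cells use as well, differed by less than 2-fold. Tpm2, a tropomyosin enriched in muscle, came closest, with 60.2 RPKM in the caecum, 72.1 in the colon and 116 in the ileum and a caecum level of 0.516 of the ileum level (0.504 to 0.529). Tpm1, which makes muscle and non-muscle tropomyosins, had 218, 224 and 305 RPKM in the caecum, colon and ileum, and its caecum level was 0.982 of the colon level (0.972 to 0.991). Cald1, the caldesmon gene, had 135, 172 and 213 RPKM in the same order, at 0.628 (0.621 to 0.634) in the caecum and 0.795 (0.787 to 0.803) in the colon of the ileum level. Cnn2, the calponin found in many cell types, differed least of the group against the ileum, with 81.9, 102 and 106 RPKM and a colon level of 0.953 of the ileum level (0.930 to 0.977). Caecum over ileum thus ran from 0.321 to 0.438 for Actg2, Cnn1, Tagln, Lmod1 and Acta2, and from 0.516 to 0.768 for the other genes of the group.

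Smooth muscle myosin showed a different order from actin in the caudal segments. Myh11 (ENSMUSG00000018830, chromosome 16, 14194620 to 14291501), the heavy chain of smooth muscle myosin, had 16270 counts in the caecum, 12514 in the colon and 37951 in the ileum. Its caecum level was 0.331 of the ileum level (0.325 to 0.337) and its colon level 0.320 of it (0.314 to 0.327). Caecum and colon were nearly level, at 1.03 for caecum over colon (1.01 to 1.06), where both smooth muscle actins were lower in the caecum. Mylk (chromosome 16, 34745296 to 35002520), the kinase that starts contraction, had 28.7 RPKM in the caecum, 37.0 in the colon and 79.3 in the ileum. The caecum stood at 0.359 (0.353 to 0.366) and the colon at 0.460 (0.452 to 0.467) of the ileum level for this gene.

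Against the ileum, the light chains differed less than the heavy chain. Myl9, the regulatory light chain that the kinase phosphorylates, had 220 RPKM in the caecum, 262 in the colon and 387 in the ileum, a caecum level of 0.563 of the ileum level (0.552 to 0.575). Myl6, the essential light chain shared with non-muscle myosin, had 176, 199 and 213 RPKM in the caecum, colon and ileum, and its caecum level was 0.821 of the ileum level (0.795 to 0.849). Of the 50-base windows in Myl6 transcripts 16.7% also occur in other genes, so its counts are less certain. Ppp1r12b, a targeting subunit of the myosin phosphatase that ends contraction, was lowest in the colon, with 11.2, 10.6 and 15.8 RPKM in the caecum, colon and ileum. Ppp1r14a, the phosphatase inhibitor CPI-17, ran the other way from the other genes of this group. It had 424 counts in the caecum, 374 in the colon and 228 in the ileum, and stood at 1.43 (1.22 to 1.69) in the caecum and 1.59 (1.35 to 1.89) in the colon against the ileum.

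**Figure D2:**
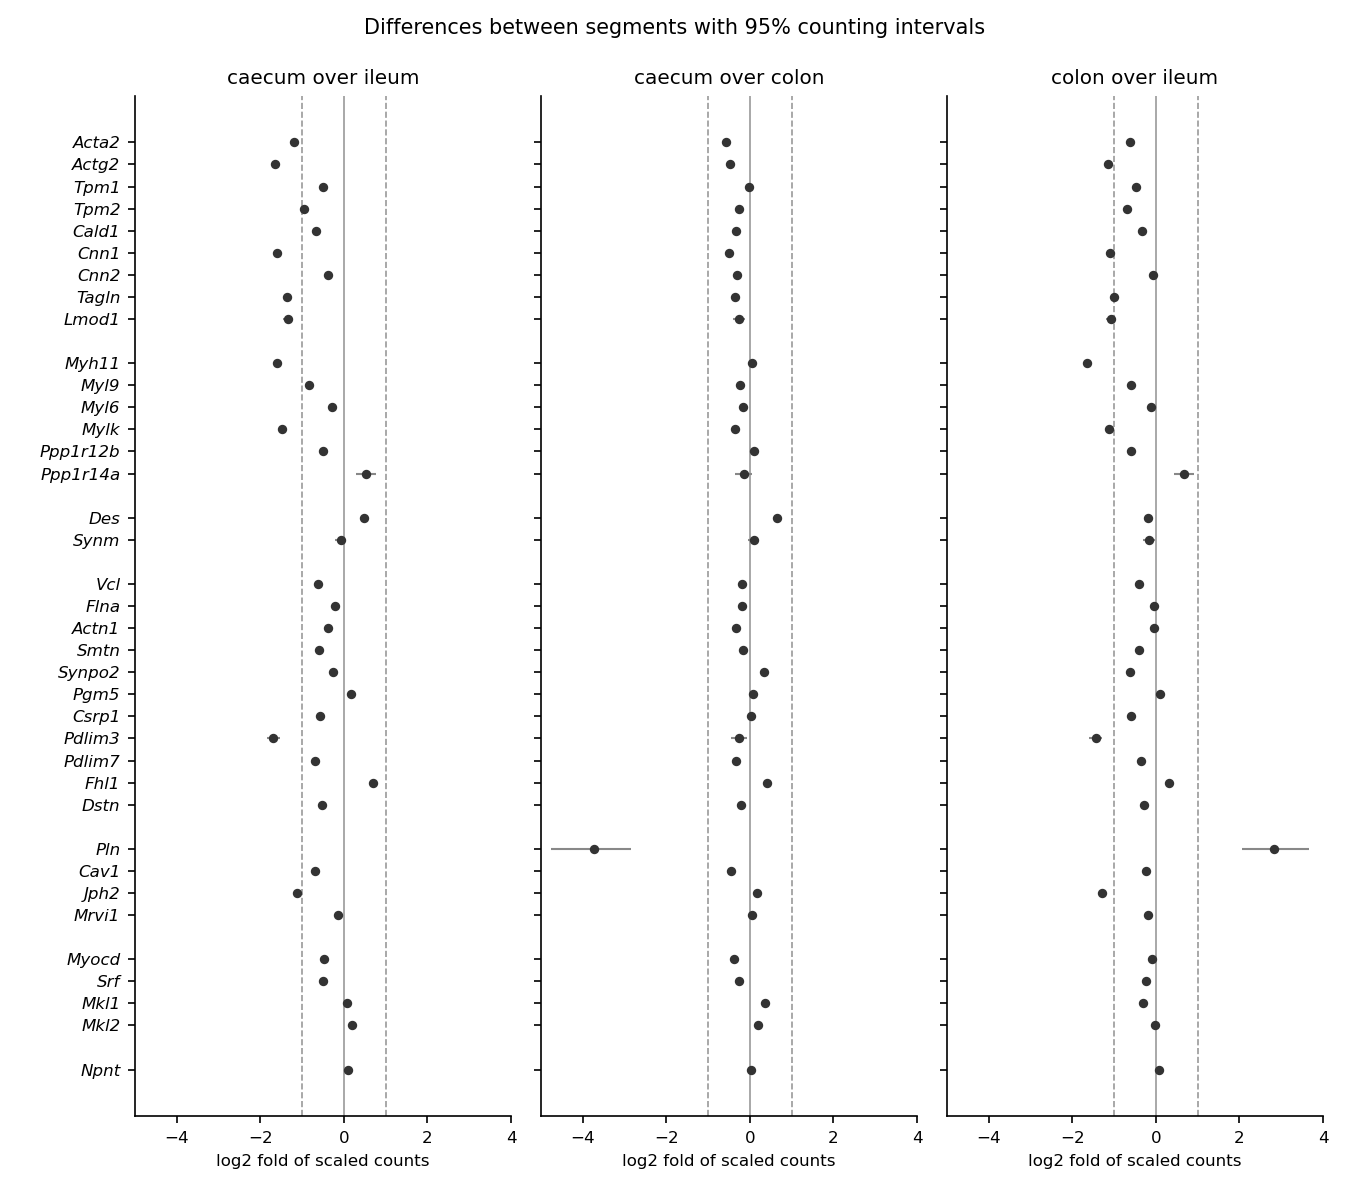
Log2 fold of TMM-scaled counts of each gene in the 3 comparisons (panels from left to right, caecum to ileum, caecum to colon, colon to ileum), with 95% counting intervals and dashed lines at 2-fold. Most points lie below 0 for caecum over ileum and colon over ileum and near 0 for caecum over colon, and Pln, which had too few counts for caecum over ileum, stands apart in the other panels.

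At a threshold of 2-fold, 9 of 36 genes compared were lower in caecum than ileum and 0 were higher. Over all 17827 features compared, 2.49% were at least 2-fold lower and 4.65% at least 2-fold higher. The 9 genes were Pdlim3, Actg2, Cnn1, Myh11, Mylk, Tagln, Lmod1, Acta2 and Jph2. Nearest to the threshold were Jph2 inside it, at 0.463 (0.439 to 0.488), and Tpm2 outside it. Intervals excluded 1 on the low side for 28 of the 36 genes (28.1% of all features) and on the high side for 6 (31.2% of all features). At 1.5-fold, 16 genes were lower (5.86% of all features) and 1, Fhl1, was higher (9.46%). The median log2 fold of the 36 genes was -0.51, against 0.01 for all features compared.

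Set against the ileum, the colon had 8 of the 37 genes 2-fold or more lower and 1, Pln, higher. In all, 4.26% and 4.0% of 17579 features met these criteria. The 8 genes were those of the caecum and ileum comparison except Acta2. Both comparisons use the same ileum library, so they are not independent of each other. Tagln, at 0.497 (0.479 to 0.515), had an interval that crossed the threshold, as did Lmod1 at 0.473 (0.435 to 0.515). Intervals lay wholly below 1 for 31 genes (27.6% of all features) and wholly above it for 5 (25.2%). At 1.5-fold, 14 genes were lower (7.9% of all features) and 2, Pln and Ppp1r14a, were higher (7.96%). The median log2 fold was -0.33, against 0.00 for all features. Enteric neural crest genes were low in the same colon library, with 10 of 15 at least 2-fold below their ileum level and a summed RPKM of 298 in the caecum, 153 in the colon and 289 in the ileum, and their part in the muscle values was not tested.

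Between caecum and colon the same genes differed little. Pln was the only one of the 37 at least 2-fold apart, and it was lower in the caecum (2.7% of 17900 features were, with 5.09% higher). The median log2 fold was -0.20, against 0.01 for all features. Intervals excluded 1 on the low side for 23 genes, where 25.3% of all features did so, and on the high side for 10, where 30.7% did. At 1.5-fold, Pln alone was lower (5.79% of all features) and Des alone was higher (9.64%). Acta2 had the lowest caecum level after Pln, at 0.670 of the colon level (0.657 to 0.683), and Des the highest, at 1.57 (1.48 to 1.67).

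The intermediate filament genes did not follow the contractile genes. Des (ENSMUSG00000026208, chromosome 1, 75356904 to 75365154), which encodes desmin, the intermediate filament protein of muscle, had 12.8 RPKM in the caecum, 8.23 in the colon and 9.19 in the ileum. It was highest in the caecum, at 1.39 times the ileum level (1.31 to 1.47), and lowest in the colon, at 0.882 of the ileum level (0.823 to 0.945). The RPKM of Des divided by that of Actg2 was 0.0917 in the caecum, 0.0416 in the colon and 0.0213 in the ileum. Desmin is also made by striated muscle, pericytes and other cells, and which cells gave these reads was not tested. Synm, the gene of synemin, a partner of desmin, was low in all libraries, with 2.02, 1.91 and 2.11 RPKM in the caecum, colon and ileum. Its caecum level could not be told from the ileum level (0.95, 0.867 to 1.04) or from the colon level (1.06, 0.969 to 1.17) at this depth.

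Genes that anchor actin filaments to membranes and dense bodies were mostly somewhat lower in the caecum. Pdlim3, a PDZ and LIM protein that binds alpha-actinin, was the exception in size, with 482 counts in the caecum, 457 in the colon and 1203 in the ileum. Its caecum level was 0.309 (0.278 to 0.344) and its colon level 0.369 (0.331 to 0.411) of the ileum level, the lowest caecum to ileum ratio among the 36 genes compared. Its relative Pdlim7 differed less, with 22.7, 28.7 and 36.1 RPKM in the caecum, colon and ileum and a caecum level of 0.624 of the ileum level (0.605 to 0.644). Vcl, the gene of vinculin in adhesion plaques, had 32.0, 36.9 and 48.5 RPKM in the same order. It overlaps Ap3m1 on the other strand, which had 7427, 6160 and 7129 counts in the caecum, colon and ileum.

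Flna, which encodes the actin cross-linker filamin A, was the most abundant of the attachment genes in every library, at 289 RPKM in the caecum, 330 in the colon and 334 in the ileum. For Flna the caecum level was 0.859 (0.854 to 0.865) and its colon level 0.973 (0.966 to 0.98) of the ileum level. Actn1, an alpha-actinin, had 46.3, 59.1 and 60.3 RPKM in the caecum, colon and ileum, so the caecum was low and the other segments nearly level. Smtn, the gene of smoothelin, had 8.46, 9.62 and 12.6 RPKM in the same order, a caecum level of 0.665 of the ileum level (0.629 to 0.703), with Gm11946 overlapping it on the other strand. Dstn, which encodes the actin-severing protein destrin, had 103, 121 and 146 RPKM. For these 4 genes the segments differed by less than 2-fold throughout.

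The other attachment genes did not place the caecum lowest. Synpo2, the gene of myopodin, had 28.3 RPKM in the caecum, 22.4 in the colon and 33.8 in the ileum, and Csrp1, a LIM protein of smooth muscle, had 45.1, 44.9 and 67.1 RPKM. Csrp1 did not differ between caecum and colon beyond counting error (1.01, 0.975 to 1.05). Pgm5, the gene of aciculin, an adhesion protein related to phosphoglucomutase, had 49.1, 47.2 and 43.3 RPKM and was slightly highest in the caecum. Fhl1, a LIM-only protein of muscle, had 14.1, 10.7 and 8.55 RPKM and stood at 1.63 times the ileum level (1.54 to 1.73) in the caecum, the highest caecum to ileum ratio of the 36 genes.

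The membrane and calcium genes did not share 1 pattern. Pln (ENSMUSG00000038583, chromosome 10, 53057492 to 53065805), which encodes phospholamban, an inhibitor of the calcium pump of the sarcoplasmic reticulum, had 11 counts in the caecum, 116 in the colon and 16 in the ileum. Its colon level was 7.04 times the ileum level (4.16 to 12.7), and its caecum level was 0.0753 of the colon level (0.0366 to 0.140). Pln was the least abundant of the 37 genes, at 0.0688, 0.917 and 0.129 RPKM, and overlaps Gm9766 on the other strand, which had 406, 322 and 261 counts in the caecum, colon and ileum. Jph2, a junctophilin that ties the plasma membrane to the reticulum, followed the contractile genes, with 8.13, 7.24 and 17.4 RPKM in the caecum, colon and ileum. For Jph2 the caecum level was 0.463 (0.439 to 0.488) and the colon level 0.409 (0.385 to 0.434) of the ileum level.

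Cav1, the gene of caveolin-1, the coat protein of caveolae, had 29.6 RPKM in the caecum, 41.0 in the colon and 47.6 in the ileum. Its caecum level was 0.617 of the ileum level (0.597 to 0.638). Mrvi1, now named Irag1, whose protein links cGMP kinase to the inositol trisphosphate receptor, was nearly even, with 30.6, 29.6 and 33.2 RPKM. Npnt, a matrix ligand of integrin alpha 8 beta 1, was likewise even, at 23.7, 23.4 and 21.9 RPKM. Its caecum level could not be told from its colon level (1.02, 0.986 to 1.06).

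Of the transcription factors, Myocd and Srf were lower in the caecum against the ileum, and Mkl1 and Mkl2 were not. Myocd (ENSMUSG00000020542, chromosome 11, 64990063 to 65083491), the gene of myocardin, had 9527 counts in the caecum, 9824 in the colon and 10140 in the ileum. The caecum stood at 0.725 (0.705 to 0.745) and the colon at 0.941 (0.915 to 0.968) of the ileum level. Srf, which overlaps Gm16736 on the other strand (145, 114 and 98 counts in the caecum, colon and ileum), had 11.5 RPKM in the caecum, 13.7 in the colon and 16.1 in the ileum, with a caecum level of 0.708 (0.674 to 0.744) and a colon level of 0.842 (0.8 to 0.885) of the ileum level. The RPKM of Actg2 divided by that of Myocd was 6.28 in the caecum, 6.78 in the colon and 14.2 in the ileum, and that of Mylk divided by Myocd was 1.29, 1.27 and 2.60. Colon and ileum differed less in Myocd than in Actg2, Mylk and Myh11. The part of Myocd in the levels of these genes was not tested.

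Mkl1 and Mkl2, now named Mrtfa and Mrtfb, encode the myocardin-related factors, which actin monomers hold in the cytoplasm. Mkl1, which overlaps Sgsm3 on the other strand (1656, 1250 and 1101 counts in the caecum, colon and ileum), had 8.22 RPKM in the caecum, 6.41 in the colon and 7.75 in the ileum, and its caecum level could not be told from its ileum level (1.05, 0.998 to 1.11). Mkl2 had 8.10, 7.14 and 7.07 RPKM and was highest in the caecum, at 1.14 times the ileum level (1.09 to 1.19). Its colon and ileum levels could not be told apart (0.993, 0.945 to 1.04). None of the 4 factors reached 1.5-fold in either direction in any of the 3 comparisons.

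Within gene families, the smooth muscle members made up a larger share of RNA in the ileum. Acta2 and Actg2 together took 16.4% of the RPKM of the 6 conventional actin genes in the caecum, 21.7% in the colon and 34.0% in the ileum. The non-muscle actins Actb and Actg1 were nearly even, at 725 and 840 RPKM in the caecum, 768 and 857 in the colon, and 791 and 781 in the ileum. Myh11 took 20.7% of the RPKM of Myh9, Myh10, Myh11 and Myh14 in the caecum, 19.1% in the colon and 43.6% in the ileum. Myh10, a non-muscle heavy chain, was even at 121, 128 and 126 RPKM in the caecum, colon and ileum, so Myh11 reached 0.314, 0.290 and 0.909 of its level.

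**Figure D3:**
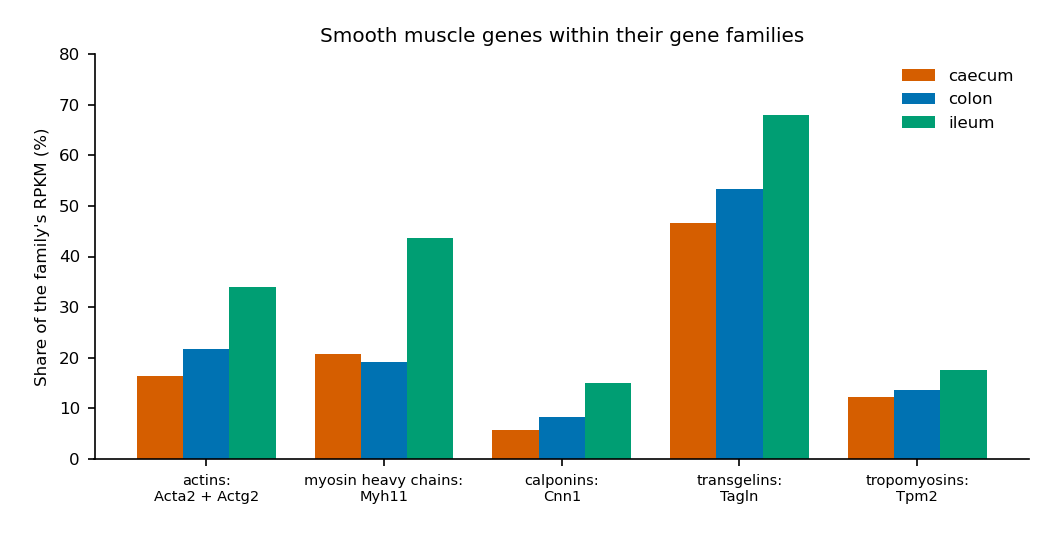
Share of each gene family's summed RPKM taken by its smooth muscle members in each library (bars, caecum, colon and ileum from left to right). The ileum bar is the highest in all 5 families, and the caecum bar is below the colon bar in all but the myosin heavy chains.

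Smaller families gave the same order of ileum over the other segments. Cnn1 took 5.72% of calponin RPKM in the caecum, 8.27% in the colon and 15.1% in the ileum, with Cnn2 and Cnn3 as the rest. Tagln took 46.7%, 53.4% and 68.0% of transgelin RPKM in the caecum, colon and ileum. Tpm2 took 12.3%, 13.6% and 17.5% of tropomyosin RPKM, where Tpm1, which serves both kinds of cell, took the largest part. Among 24 non-muscle relatives compared, 0 were 2-fold higher and 1 was 2-fold lower for caecum over ileum (4.65% and 2.49% of all features). Their median log2 fold was -0.01. For colon over ileum 0 were higher and 1 was lower (4.0% and 4.26% of all features), with a median of 0.01. Counts of 0 or 1 among 24 genes lie near such shares. For caecum over colon 1 was higher and 0 were lower (5.09% and 2.7%). Their median there was -0.15, near the -0.20 of the smooth muscle genes.

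Other genes of smooth muscle, on a list of 63 features outside the set, were less uniform. Of 61 compared, caecum over ileum was 2-fold or more up for 3 and down for 6 (4.65% and 2.49% of all features). The median log2 fold was -0.32. In the colon against the ileum 0 were higher and 6 lower (4.0% and 4.26% of all features), with a median of -0.24. In the caecum against the colon 4 were higher and 0 lower (5.09% and 2.7%), with a median of -0.04. Aoc3, an amine oxidase of smooth muscle and fat, was the farthest apart, with 41 counts in the caecum, 31 in the colon and 273 in the ileum. Myom1, a myomesin, had 1003, 836 and 2297 counts in the same order. Pdlim5 ran the other way, with 3861 counts in the caecum, 2303 in the colon and 1130 in the ileum. Hspb8, a small heat shock protein, had 745, 194 and 365 counts and was highest in the caecum and lowest in the colon.

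Part of the pericyte and vascular mural genes were lower in the caecum library. Of 10 compared, 3 had a caecum level 2-fold or more below both the ileum level and the colon level. These were Rgs5, Abcc9 and Kcnj8, markers of pericytes. Over all features, 2.49% were at least 2-fold lower in the caecum against the ileum and 2.7% against the colon. Rgs5 had 899 counts in the caecum, 3772 in the colon and 4424 in the ileum, and Abcc9 had 3324, 8458 and 8842. Rgs4, a regulator of G protein signalling, ran the other way, with 1035 counts in the caecum, 680 in the colon and 433 in the ileum, and a caecum level 1.84 times the ileum level (1.65 to 2.07). The list's summed RPKM was 80.9 in the caecum, 130 in the colon and 131 in the ileum, with 0 of its 11 genes at 0 counts in any library. Between colon and ileum 0 of the 10 were at least 2-fold apart, where 4.0% of all features were higher in the colon and 4.26% lower. The median log2 fold of the mural list was -0.47 for caecum over ileum, -0.30 for caecum over colon and -0.17 for colon over ileum. In the same order the smooth muscle genes had -0.51, -0.20 and -0.33. Acta2, Myh11, Tagln and Cnn1 are also expressed in vascular smooth muscle, and the part of mural cells in their levels was not tested.

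**Figure D4:**
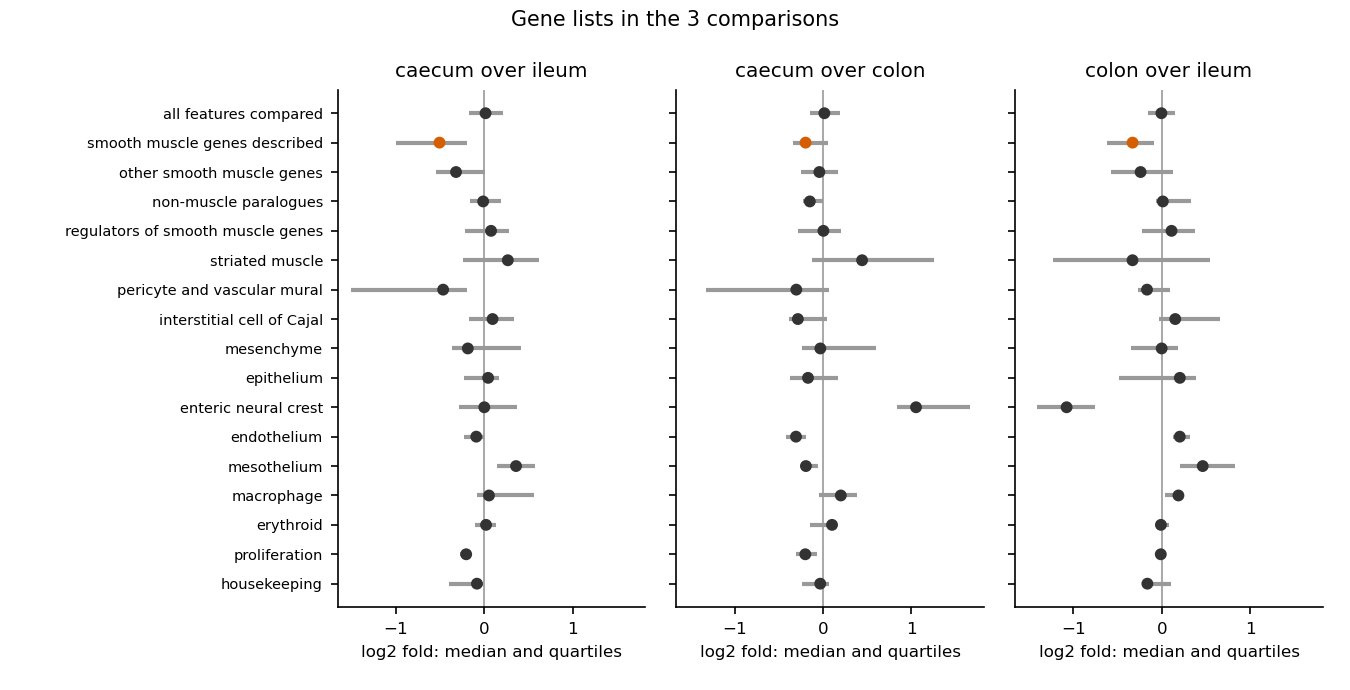
Median log2 fold (points) with quartiles (bars) of the smooth muscle genes and of lists that mark other cell types or states, in the 3 comparisons. The median of the smooth muscle genes lies left of that of all features in every panel. So do those of the mural, other smooth muscle, proliferation and housekeeping lists. The enteric neural crest list is the farthest from 0 in the comparisons with the colon.

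Markers of the other cell types had medians of either sign, and several lists were below 0 in the caecum against the colon, as the smooth muscle genes were. Taken in turn (caecum against ileum, caecum against colon, colon against ileum), the median log2 folds were -0.19, -0.03 and 0.00 for mesenchyme, 0.04, -0.17 and 0.20 for epithelium, -0.09, -0.31 and 0.20 for endothelium, and 0.09, -0.28 and 0.15 for interstitial cells of Cajal. They were 0.00, 1.05 and -1.08 for enteric neural crest, 0.36, -0.19 and 0.46 for mesothelium, 0.05, 0.20 and 0.19 for macrophages and 0.02, 0.10 and -0.01 for erythroid cells. Proliferation genes had -0.20, -0.20 and -0.01, housekeeping genes -0.08, -0.03 and -0.16, and regulators of smooth muscle genes 0.08, 0.00 and 0.11. Single regulators differed more than these medians show. Of 46 compared, 2 were at least 2-fold higher and 5 lower for caecum over ileum (4.65% and 2.49% of all features). The numbers were 1 and 5 for caecum over colon (5.09% and 2.7%) and 4 and 4 for colon over ileum (4.0% and 4.26%). The part of these differences in the muscle levels was not tested.

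Striated muscle genes had a low summed level in the libraries. The summed RPKM of its 37 listed features was 15.7 in the caecum, 13.1 in the colon and 22.8 in the ileum, against 2147, 2541 and 3522 for the smooth muscle genes. Of the 37 features, 11 in the caecum, 19 in the colon and 15 in the ileum had under 20 counts, and the rest had more. Myod1, the master factor of skeletal muscle, had 3 counts in the caecum, 0 in the colon and 2 in the ileum. Myf5 had 0, 2 and 0, and neither gene stands for the whole list. Actc1, cardiac actin, had 67, 46 and 240 counts in the caecum, colon and ileum, far below the smooth muscle actins. For caecum over ileum 6 of 26 features compared were 2-fold or more higher and 3 lower (4.65% and 2.49% of all features). For caecum over colon 9 of 26 were higher and 1 lower (5.09% and 2.7%). For colon over ileum 3 of 23 were higher and 8 lower (4.0% and 4.26%). In the same order the median log2 folds were 0.27, 0.44 and -0.33.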

How the data were processed

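The deposited table gives expected counts and RPKM per Ensembl gene in 2 columns per sample, which the file headers label as replicates. Per the file headers, the authors gave expected counts, with fractions of 0.5 in places, and RPKM scaled by length and depth. Bowtie 0.12.7, DESeq and the build mm9 are named in the submitters' processing notes, with no roles. The counting program, annotation release, strand setting and what the columns are were not given in the sources used here. The 2 columns differed by 0.485 to 0.486 times the counting variance, so they were averaged, rounded to whole counts and read as 1 library.

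Libraries were scaled by TMM (edgeR 4.0.16, R 4.3.3). Each fold divides scaled counts, and its 95% interval is the exact (Clopper-Pearson) one for a share of the summed counts (scipy 1.17.1), covering counting error only, at 20 counts or more in the higher library. The calculation was tested on simulated data. RPKM of both columns were averaged for levels between genes. Shared 50-base windows were counted over GENCODE vM21 transcripts. Of 311 entries in 15 other lists, 309 matched by symbol. All 37 genes were named, and of other lists up to 4 genes, with none for some lists, whose interval bound nearest to no difference was largest. Hoxa13, Hoxd13, Fgf10, Actc1, Myod1, Myf5 and the relatives in the family shares fall outside that rule; Actc1, Myod1 and Myf5 were chosen after their values were seen. Starts in the table count from 0, and 1 was added. The members and lists were chosen with earlier results of these data known. Alternatives were other scalings, count minimums, single columns, RPKM ratios and other thresholds, with DESeq2 1.42.0 size factors among them.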

Additional observations from a re-analysis of the deposited data

How the results depend on the processing

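Of the numbers of genes at least 2-fold apart and the median folds, none reversed direction under the alternatives tried. With ratios of RPKM and a pseudocount of 1, Pln no longer counted, so 0 genes were 2-fold higher for colon over ileum and 0 lower for caecum over colon, and the median log2 fold for colon over ileum was -0.31. A threshold of 1.5-fold gave 16 genes lower and 1 higher for caecum over ileum, 14 lower and 2 higher for colon over ileum, and 1 higher for caecum over colon. Under library totals, RPKM with either pseudocount and intervals wholly beyond 2-fold, the number lower for colon over ileum was 6 or 7 in place of 8, and the number lower for caecum over ileum was 9 in each. Library totals, size factors of DESeq2, TMM without muscle genes and either column alone shifted single genes by at most 0.13 on the log2 scale, and the fold of Mkl2 for colon over ileum changed sign, at 0.01, under library totals and RPKM. No paired analysis was possible because each segment has 1 sample. Depth limits Pln, whose levels rest on 11 to 116 counts.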
